A study of Caenorhabditis elegans with 48 samples.

Results

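The 10 genes described here, ztf-7, skr-21, C32F10.4, T01G1.4, hpo-11, W03G11.4, mdt-15, mnk-1, vbh-1 and lin-66, were listed as carrying fewer ribosome footprints per mRNA when either of a pair of genes was knocked down by RNAi in the nematode Caenorhabditis elegans. They were taken as a list of names out of 19454 genes in the mRNA-seq table, and they were chosen by their translational efficiency (TE, footprints relative to mRNA) in both knockdowns. Their knockdown values are therefore a description, given with no test. Of 10714 genes tested for TE in the knockdown experiment, 51 (0.476%) were lower in both knockdowns at an edgeR adjusted p under 0.05, and 8 of these were among the 10 genes and 43 were not. The 2 genes that did not meet the name of the list were T01G1.4, whose TE in C27F2.4 RNAi was not below that of Empty_vector, and C32F10.4, whose TE in C27F2.4 RNAi did not pass the threshold and overlapped Empty_vector between libraries.

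Messenger RNA and ribosome footprints (Ribo-seq) were each sequenced in 24 libraries, 48 in all. One experiment compared worms labelled Fed with worms labelled Starved (6 libraries per group and assay), and the other compared Empty_vector worms with RNAi against E02H1.1 or C27F2.4 (4 per group and assay). Both targets are homologues of methyltransferases that modify the 18S rRNA of the small ribosomal subunit: E02H1.1 of DIMT1 and C27F2.4 of BUD23. Strain, length of starvation and RNAi exposure are not given in the labels, nor is it said that replicates were separate cultures, so errors and p-values measure the spread between these libraries, which may be technical. The source label of all groups is young adult, but 34 transcripts of adult yolk and sperm summed to only 3.02 to 5.85 counts per M (CPM) per mRNA-seq library, and 4 of them were at 0 in every library.

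Ribosomes leave protected fragments on the mRNAs they translate, so the footprint level of a gene moves with both the amount of its mRNA and the number of ribosomes on each copy. TE separates the second from the first. The 10 genes have different jobs. mdt-15 encodes a subunit of Mediator, the complex that links transcription factors to RNA polymerase II, and is known as a coactivator of fatty acid and stress response genes. mnk-1 encodes a relative of the MAP-kinase-interacting kinases, which in mammals phosphorylate the cap-binding initiation factor eIF4E. vbh-1 encodes a DEAD-box RNA helicase related to Vasa and Belle, and lin-66 is a heterochronic gene, one of the genes that set the timing of larval cell fates, which acts on lin-28. skr-21 belongs to the SKP1-related family, adaptors of cullin-based ubiquitin ligases, and ztf-7 encodes a zinc finger protein. hpo-11 is named for a hypersensitivity to pore-forming toxin, and no role is given here for C32F10.4, T01G1.4 and W03G11.4.

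Library totals ran from 19.2 to 22.8 M counts in mRNA-seq and from 3.91 to 11.7 M in Ribo-seq, with a mean of 7.52 M for Empty_vector, 5.41 M for E02H1.1, 9.37 M for C27F2.4, 5.97 M for Fed and 4.91 M for Starved footprints. Each target was reduced in its own RNAi libraries, to 28.2% (mRNA) and 24.4% (footprints) of Empty_vector for E02H1.1 and to 50.6% and 33.3% for C27F2.4. Some summed tissue markers in mRNA-seq differed between the groups. The 5 muscle markers stood at 1619 to 2011 CPM in Empty_vector, 2405 to 2611 in E02H1.1 and 2126 to 2466 in C27F2.4, 2230 to 2390 in Fed and 2303 to 3264 in Starved. The 5 intestine markers stood at 442 to 520, 570 to 631, 521 to 638, 601 to 649 and 617 to 776 in the same order, and the 5 neuron markers at 503 to 541, 541 to 587, 512 to 579, 538 to 593 and 537 to 593. The 15 germline and oocyte markers stood at 1160 to 1420 CPM in Empty_vector, 967 to 1123 in E02H1.1, 1068 to 1446 in C27F2.4, 1668 to 2087 in Fed and 1521 to 1873 in Starved, so that E02H1.1 lay below Empty_vector and C27F2.4 overlapped it. In whole worms, fewer cells of a type and less RNA per cell cannot be told apart, and the part of these shifts in the values that follow was not tested. Starved 1 and Starved 5 stood apart from the other Starved libraries in earlier results of these data, so results for starvation are also given without them.

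All 10 genes had lower TE in the E02H1.1 libraries than in Empty_vector. The median log2 TE change was -0.61, which is a TE of 65.6% of Empty_vector, beside a median of 0.03 over all 10714 genes tested. In C27F2.4 the median was -0.32, a TE of 79.97%, beside 0.02 over all genes. In the E02H1.1 libraries the median footprint change was -0.47 and the median mRNA change 0.07, and mRNA ran up to 0.70 for C32F10.4, 0.26 for W03G11.4 and 0.25 for mdt-15. In C27F2.4 these medians were -0.28 and 0.04. The libraries of E02H1.1 RNAi all lay below those of Empty_vector in TE for 10 of 10 genes, where 10% of all genes did so, and those of C27F2.4 RNAi for 8 of 10, where 5.74% did. Among all genes tested, TE passed the threshold in E02H1.1 as lower for 5.24% and higher for 5.59%, and in C27F2.4 as lower for 0.513% and higher for 0.364%. Since the genes were chosen on these contrasts, nothing is read from these shares, and both comparisons share the same Empty_vector libraries.

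**Figure D1:**
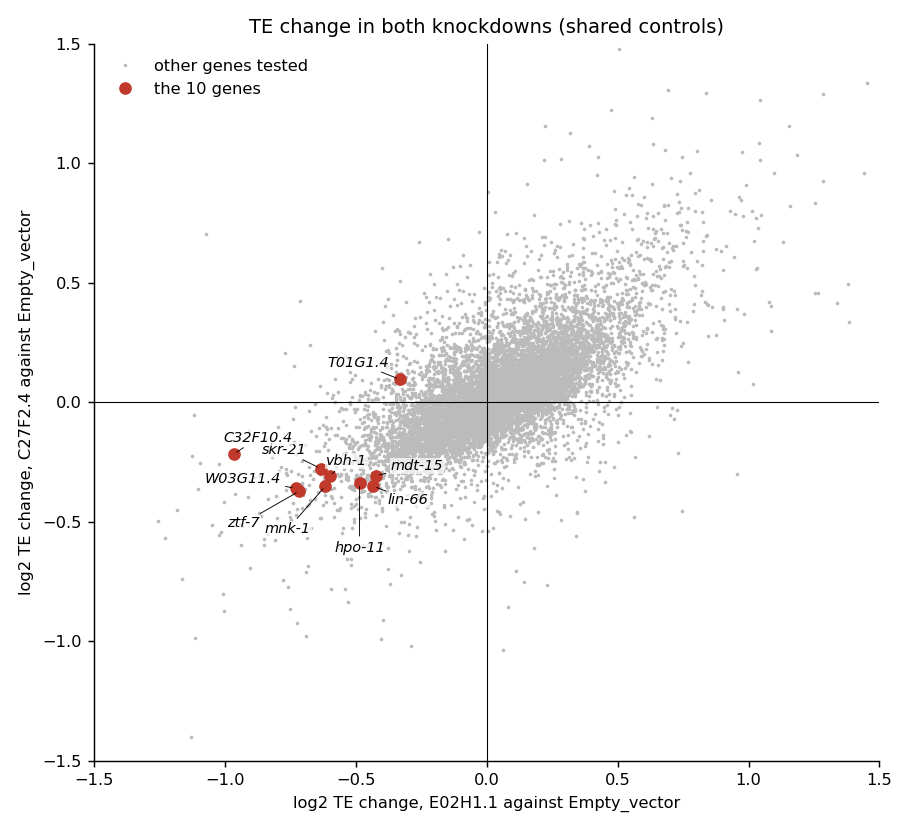
Change in log2 TE of each gene tested in E02H1.1 RNAi (horizontal axis) and in C27F2.4 RNAi (vertical axis), both against the same Empty_vector libraries; red points are the 10 genes and grey points the others, and 3 genes lie outside the axes. The red points span -0.97 to -0.33 on the horizontal axis and -0.37 to 0.10 on the vertical axis, and T01G1.4 alone is above 0 on the latter.

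mdt-15, the Mediator subunit, had higher mRNA and lower footprints in both knockdowns. Its mRNA stood at 354, 337, 325 and 344 CPM in Empty_vector A to D, at 397, 408, 399 and 414 in E02H1.1, and at 374, 373, 380 and 363 in C27F2.4. Its footprints stood at 305, 303, 281 and 294 CPM in Empty_vector, at 265, 260, 252 and 266 in E02H1.1, and at 274, 257, 261 and 258 in C27F2.4. All libraries of either knockdown were above all Empty_vector libraries in mRNA and below them in footprints. The log2 changes in E02H1.1 were 0.25 ± 0.04 (SE) in mRNA, -0.17 ± 0.05 in footprints and -0.42 ± 0.06 in TE. In C27F2.4 they were 0.13 ± 0.04, -0.17 ± 0.04 and -0.31 ± 0.06. The mRNA difference was thus the larger part of the TE difference in E02H1.1, and footprints were about the same in both knockdowns.

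mnk-1, the kinase gene, showed the change in footprints with little in mRNA. Its footprints stood at 315, 335, 315 and 326 CPM in Empty_vector A to D, at 234, 210, 199 and 232 in E02H1.1, and at 253, 230, 230 and 245 in C27F2.4. Every knockdown library lay below every Empty_vector library. Its mRNA stood at 802, 845, 689 and 813 CPM in Empty_vector, at 797 to 859 in E02H1.1 and at 717 to 776 in C27F2.4. Both knockdowns overlapped Empty_vector, and E02H1.1 lay above C27F2.4. TE was lower by 0.62 ± 0.08 on the log2 scale in E02H1.1 (65.2% of Empty_vector) and by 0.35 ± 0.08 in C27F2.4 (78.4%).

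vbh-1, the helicase gene, was alike in this respect. Its mRNA stood at 713, 739, 656 and 682 CPM in Empty_vector A to D, at 685 to 711 in E02H1.1 and at 663 to 692 in C27F2.4. Its footprints stood at 261, 249, 282 and 256 CPM in Empty_vector, at 184, 150, 162 and 197 in E02H1.1, and at 214, 204, 200 and 210 in C27F2.4. The mRNA levels of the groups overlapped, while the footprint levels did not. The log2 change in footprints was -0.59 ± 0.06 in E02H1.1 and -0.34 ± 0.06 in C27F2.4, beside 0.01 ± 0.04 and -0.03 ± 0.04 in mRNA.

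lin-66, the heterochronic gene, was lower in TE by a similar amount in both knockdowns. Its log2 TE stood at -0.36, -0.34, -0.17 and -0.32 in Empty_vector A to D, at -0.71, -0.83, -0.74 and -0.68 in E02H1.1, and at -0.53, -0.63, -0.71 and -0.70 in C27F2.4. The knockdown libraries lay below all Empty_vector libraries and overlapped each other. The change was -0.43 ± 0.07 in E02H1.1 and -0.35 ± 0.07 in C27F2.4, with mRNA at 0.19 ± 0.05 and 0.15 ± 0.05 and footprints at -0.25 ± 0.05 and -0.20 ± 0.04. Of the 10 genes it differed least between the knockdowns.

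**Figure D2:**
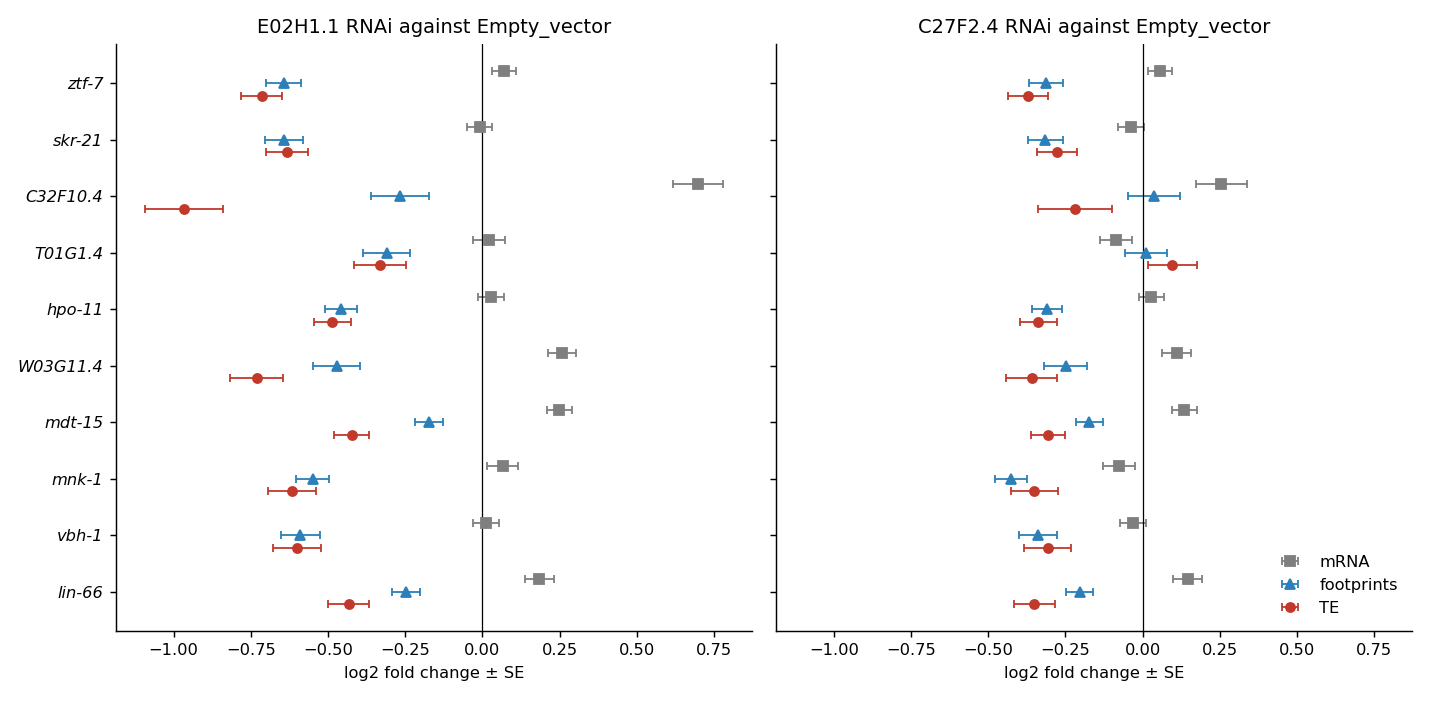
Log2 fold change ± SE of mRNA (squares), footprints (triangles) and TE (circles) of the 10 genes in E02H1.1 RNAi (left) and C27F2.4 RNAi (right) against Empty_vector, 4 libraries per group and assay. Footprint changes run from -0.64 to -0.17 on the left and from -0.43 to 0.04 on the right, while mRNA changes run from -0.01 to 0.70 and from -0.09 to 0.25.

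skr-21, of the SKP1-related family, had footprints of 122, 120, 120 and 125 CPM in Empty_vector A to D, of 85.95, 73.25, 69.5 and 80.97 in E02H1.1, and of 100, 101, 90.7 and 99.3 in C27F2.4. The groups followed this order without overlap. Its mRNA overlapped between the groups, at 286 to 299 CPM in Empty_vector, 280 to 305 in E02H1.1 and 280 to 295 in C27F2.4. TE was at -0.63 ± 0.07 in E02H1.1 and -0.28 ± 0.07 in C27F2.4. Similar members of its family may take some of its reads, which makes its own level less certain.

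ztf-7, the zinc finger gene, followed the same order. Its footprints stood at 283, 271, 292 and 261 CPM in Empty_vector A to D, at 184, 168, 160 and 192 in E02H1.1, and at 240, 216, 214 and 221 in C27F2.4. The groups did not overlap. Its mRNA ran from 589 to 632 CPM in Empty_vector, from 644 to 655 in E02H1.1 and from 625.3 to 659 in C27F2.4. TE was at -0.72 ± 0.07 in E02H1.1 and -0.37 ± 0.07 in C27F2.4, the lowest of the 10 genes in C27F2.4.

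hpo-11 had footprints of 147 to 157 CPM in Empty_vector, 104 to 112.9 in E02H1.1 and 119 to 129 in C27F2.4, and mRNA of 342 to 352, 336 to 366 and 339 to 357 CPM. Footprints did not overlap between the groups and mRNA did. TE was at -0.49 ± 0.06 in E02H1.1 and -0.34 ± 0.06 in C27F2.4. W03G11.4 had footprints of 64.03 to 71.7 CPM in Empty_vector, 44.4 to 57.5 in E02H1.1 and 55.3 to 61.3 in C27F2.4, so that both knockdowns lay below Empty_vector but overlapped each other. Its mRNA was higher in every E02H1.1 library (408 to 450 CPM) and every C27F2.4 library (371 to 397) than in Empty_vector (324 to 369), and TE was at -0.73 ± 0.09 and -0.36 ± 0.08.

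C32F10.4 stood out by its mRNA. This stood at 32.4, 30.2, 25.1 and 26.2 CPM in Empty_vector A to D, at 47.4, 47.1, 45.8 and 44.8 in E02H1.1, and at 35.0, 35.8, 29.7 and 35.1 in C27F2.4. All E02H1.1 libraries were above all others of that experiment, and C27F2.4 and Empty_vector overlapped. Its footprints stood at 26.8, 25.65, 24.6 and 27.6 CPM in Empty_vector, at 24.2, 20.8, 19.1 and 22.01 in E02H1.1, and at 28.1, 29.3, 25.5 and 24.7 in C27F2.4. Footprints were thus lower in E02H1.1 alone, and by less than mRNA was higher: -0.27 ± 0.09 against 0.70 ± 0.08. In C27F2.4 mRNA was at 0.25 ± 0.08 and footprints were at 0.04 ± 0.08. TE was at -0.97 ± 0.13 in E02H1.1, 51.2% of Empty_vector and the lowest of the 10 genes, and at -0.22 ± 0.12 in C27F2.4, where the libraries overlapped those of Empty_vector. It is also the gene with the fewest counts, with 42 to 291 footprints and 533 to 1003 mRNA counts per library.

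T01G1.4 was lower in E02H1.1 alone. Its footprints stood at 36.1, 35.9, 36.4 and 33.6 CPM in Empty_vector A to D, at 31.9, 28.05, 27.8 and 26.7 in E02H1.1, and at 36.3, 35.5, 35.3 and 36.1 in C27F2.4. E02H1.1 lay below both other groups, which overlapped. mRNA ran from 78.8 to 85.5 CPM in Empty_vector, from 79.2 to 84.7 in E02H1.1 and from 71.3 to 79.8 in C27F2.4. TE was at -0.33 ± 0.08 in E02H1.1 and 0.10 ± 0.08 in C27F2.4.

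**Figure D3:**
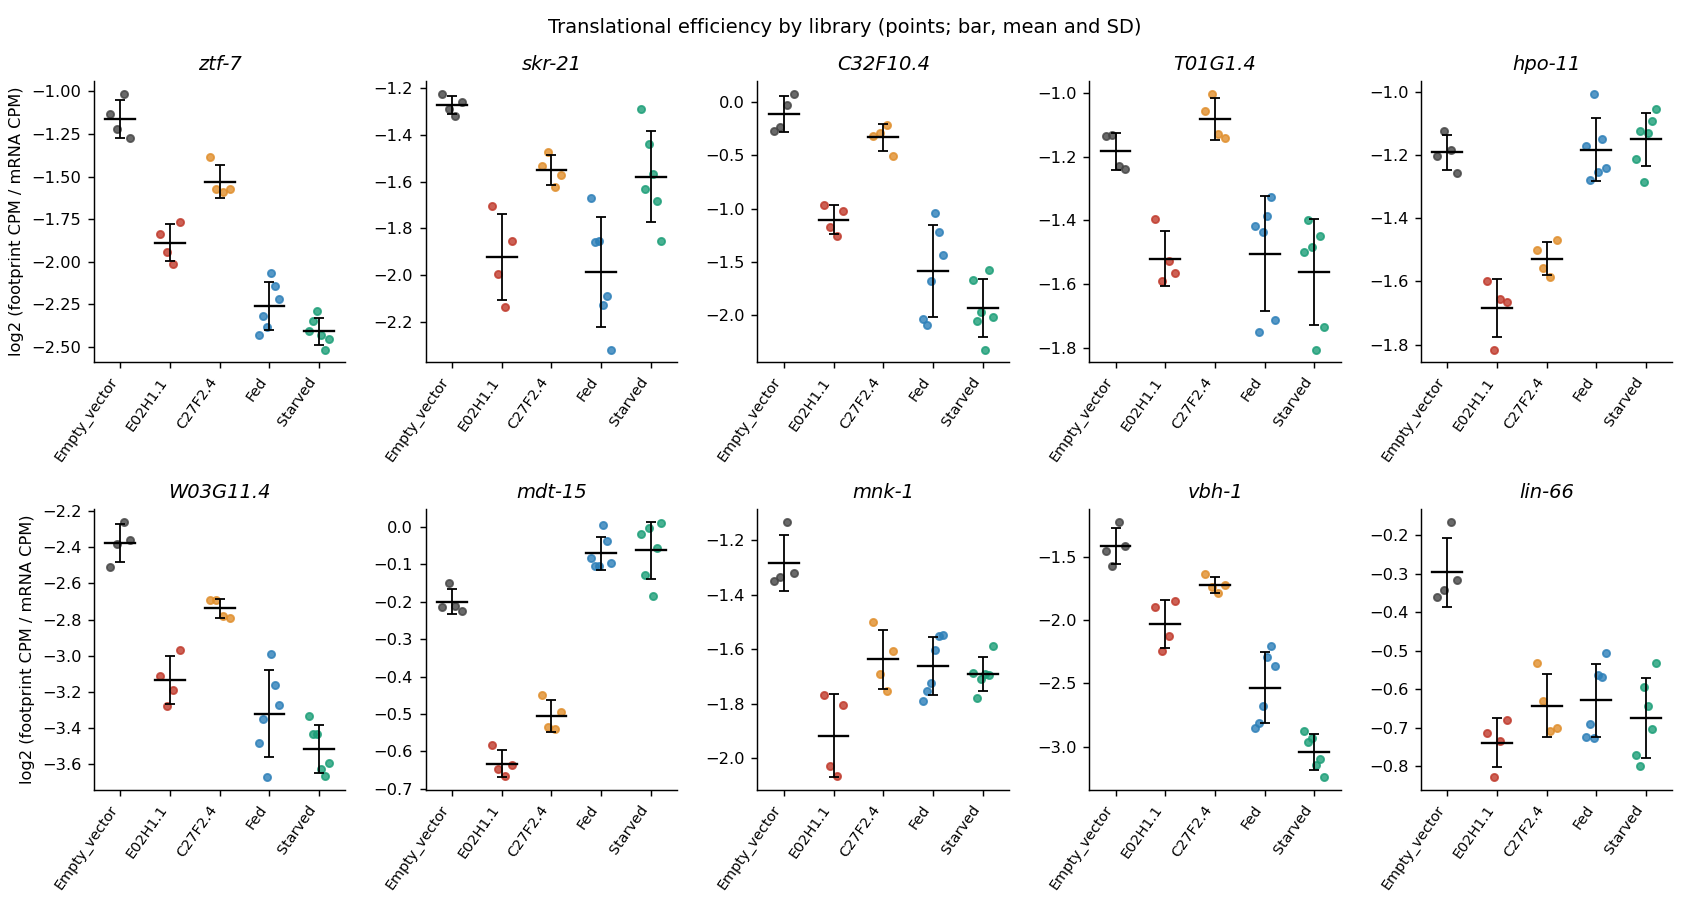
Log2 TE (log2 footprint CPM less log2 mRNA CPM of the same-named columns) of each of the 10 genes in every library, with the mean and SD of each group (4 libraries for Empty_vector, E02H1.1 and C27F2.4, and 6 for Fed and Starved); each panel has its own vertical scale. E02H1.1 lies below Empty_vector in all 10 panels, and the Fed and Starved libraries of ztf-7 lie below every library of the knockdown experiment.

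The E02H1.1 libraries also lay below the C27F2.4 libraries in TE for every gene of the 10 except lin-66, whose libraries overlapped. The difference, E02H1.1 less C27F2.4, was -0.75 ± 0.12 for C32F10.4, -0.43 ± 0.08 for T01G1.4, -0.37 ± 0.09 for W03G11.4, -0.36 ± 0.07 for skr-21 and -0.34 ± 0.07 for ztf-7. It was -0.29 ± 0.08 for vbh-1, -0.27 ± 0.08 for mnk-1, -0.15 ± 0.06 for hpo-11, -0.12 ± 0.06 for mdt-15 and -0.08 ± 0.07 for lin-66. Of all 10714 genes tested, 4 (0.0373%) passed the threshold as lower in E02H1.1 than in C27F2.4, and these were C32F10.4, T01G1.4, skr-21 and ztf-7. The choice of the list used these libraries, so this is a description of how it was made up. Each knockdown reduced its own target to a different degree, as given above.

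The list is named for the knockdowns and not for Starved against Fed, so that comparison was tested. Earlier results of these data were known when the genes and tests were chosen, so these tests may not be wholly independent of the choice. In TE vbh-1 fell and none of the other 9 genes passed, 4 genes rose in mRNA, and footprints rose for mnk-1 and fell for vbh-1. Over all genes tested, 21.9% passed in mRNA, 28.6% in footprints and 6.29% in TE (3.75% lower and 2.54% higher), and the counts of 4, 2 and 1 of 10 are not read as a feature of the list. The median log2 changes over the 10 genes were 0.07 in mRNA, -0.05 in footprints and -0.05 in TE, beside 0.00, 0.01 and 0.01 over all genes.

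vbh-1 mRNA rose in Starved while its footprints fell. Its log2 TE stood at -2.85, -2.82, -2.68, -2.29, -2.20 and -2.36 in Fed 1 to 6, and at -2.87, -2.96, -2.93, -3.15, -3.10 and -3.24 in Starved 1 to 6. All Starved libraries were below all Fed libraries, but the highest of Starved and the lowest of Fed were only 0.03 apart. Fed 1 to 3 lay near Starved 1 to 3, and Fed 4 to 6 lay well above Starved 4 to 6. This split within Fed was not particular to vbh-1. Fed 4 to 6 also lay above Fed 1 to 3 in TE for ztf-7, C32F10.4, W03G11.4, mnk-1 and lin-66, and below them for skr-21. For T01G1.4, hpo-11 and mdt-15 these libraries overlapped. Within Starved, libraries 4 to 6 lay below libraries 1 to 3 in TE for vbh-1, ztf-7 and W03G11.4, the other way from Fed. For the remaining genes of the list these Starved libraries overlapped. The vbh-1 groups were thus close in libraries 1 to 3 and far apart in libraries 4 to 6. The labels name no batch, and the part of these splits in the Starved changes was not tested. The change was -0.51 ± 0.11 in TE (edgeR adjusted p = 0.00403), 0.12 ± 0.03 in mRNA (adjusted p = 0.00977) and -0.39 ± 0.12 in footprints (adjusted p = 0.0284). Without Starved 1 and Starved 5 the change in TE was -0.54 (adjusted p = 0.02202), and that in footprints was -0.42 and no longer passed (adjusted p = 0.0794). The footprint call also ended without Starved 4 (adjusted p = 0.0603) and without Starved 5 (adjusted p = 0.05476).

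mnk-1 rose in both assays by about the same amount. Its mRNA ran from 702 to 776 CPM in Fed with a median of 752, and from 891 to 1049 in Starved with a median of 971. Its footprints ran from 221 to 248 CPM in Fed with a median of 237, and from 280 to 324 in Starved with a median of 295. Neither assay had overlapping groups, and Starved 1 and Starved 5 were the highest in both. The changes were 0.39 ± 0.04 in mRNA (edgeR adjusted p = 7.57e-08) and 0.36 ± 0.05 in footprints (adjusted p = 1.1e-07), and 0.34 and 0.31 without those 2 libraries (adjusted p = 1.529e-07 and 6.904e-06). TE was at -0.02 ± 0.07 (adjusted p = 0.877). Where either knockdown had fewer mnk-1 footprints at a like mRNA level, Starved had more footprints and more mRNA.

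C32F10.4 mRNA also rose. It ran from 29.8 to 35.5 CPM in Fed with a median of 32.5, and from 39.2 to 48.9 in Starved with a median of 44.4. All Starved libraries were above all Fed libraries (0.43 ± 0.06, edgeR adjusted p = 3.93e-06, and 0.39 without Starved 1 and Starved 5, adjusted p = 2.356e-05). Its footprints ran from 7.90 to 14.4 CPM in Fed and from 8.57 to 15.3 in Starved and did not pass (0.13 ± 0.16, adjusted p = 0.595). TE was at -0.31 ± 0.16 (edgeR adjusted p = 0.288). Without Starved 1 and Starved 5, C32F10.4 was at -0.13 in footprints (adjusted p = 0.635) and at -0.51 in TE (adjusted p = 0.0561). W03G11.4 mRNA passed narrowly (0.10 ± 0.04, adjusted p = 0.0420), with overlapping groups of 347 to 384 CPM in Fed and 360 to 409 in Starved. It no longer passed without Starved 1 and Starved 5 (0.09, adjusted p = 0.133), nor on leaving out any 1 library other than Fed 1, Starved 3 or Starved 6.

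**Figure D4:**
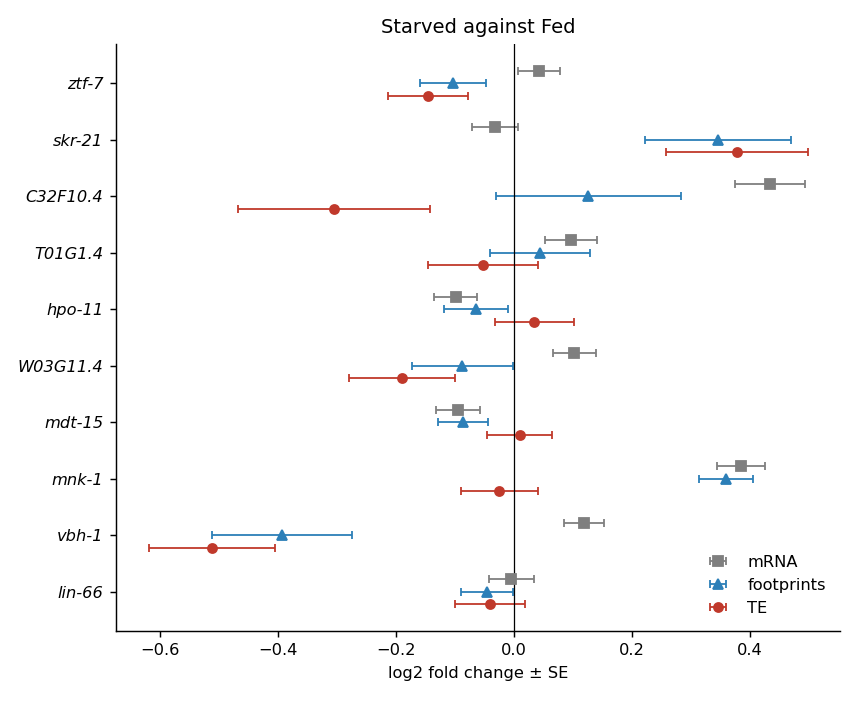
Log2 fold change ± SE of mRNA (squares), footprints (triangles) and TE (circles) of the 10 genes in Starved against Fed, 6 libraries per group and assay. vbh-1 is at -0.51 in TE, mnk-1 is at 0.39 in mRNA and 0.36 in footprints, and lin-66 lies near 0 in all 3 measures.

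skr-21 lay in the other direction from vbh-1 without passing. Its log2 TE ran from -2.32 to -1.67 in Fed with a median of -1.97, and from -1.86 to -1.29 in Starved with a median of -1.60, and the groups overlapped. Within Fed it stood at -1.67, -1.86 and -1.85 in Fed 1 to 3 and lower, at -2.13, -2.09 and -2.32, in Fed 4 to 6. The change was 0.38 ± 0.12 in TE (edgeR adjusted p = 0.0620) and 0.35 ± 0.12 in footprints (adjusted p = 0.0575), with mRNA at -0.03 ± 0.04. In TE it passed under 5 of 20 alternative settings (adjusted p from 0.00408 to 0.209). TE of the remaining genes was at -0.15 ± 0.07 for ztf-7, -0.05 ± 0.09 for T01G1.4, 0.03 ± 0.07 for hpo-11, -0.19 ± 0.09 for W03G11.4, 0.01 ± 0.06 for mdt-15 and -0.04 ± 0.06 for lin-66. None of these 6 passed, with adjusted p from 0.208 to 0.948. mRNA of hpo-11 (-0.10 ± 0.04, adjusted p = 0.0512) and mdt-15 (-0.10 ± 0.04, adjusted p = 0.0648) lay near the threshold.

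**Figure D5:**
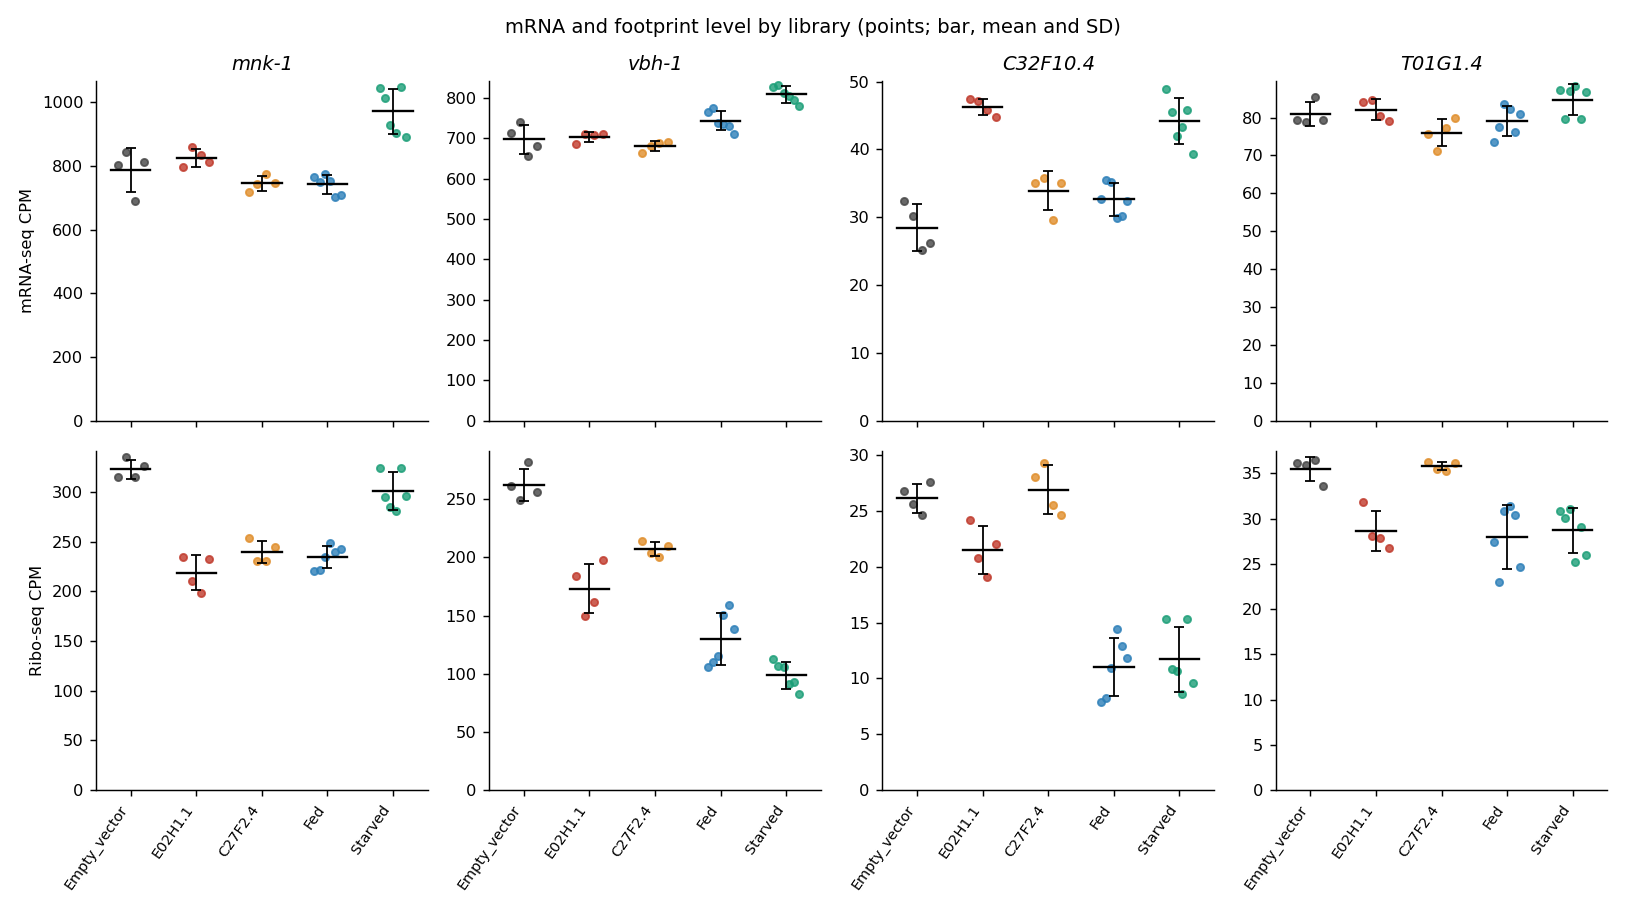
mRNA-seq (top) and Ribo-seq (bottom) levels in CPM of mnk-1, vbh-1, C32F10.4 and T01G1.4 in every library, with the mean and SD of each group. mnk-1 footprints average 323 CPM in Empty_vector, 219 in E02H1.1, 240 in C27F2.4, 235 in Fed and 301 in Starved, and C32F10.4 mRNA is highest in E02H1.1 and Starved, at 46.3 and 44.2 CPM.

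Across all 5 groups the order of TE differed between the genes. For ztf-7 the mean log2 TE ran downwards in the order Empty_vector (-1.16 ± 0.11 SD), C27F2.4 (-1.53 ± 0.10), E02H1.1 (-1.89 ± 0.11), Fed (-2.26 ± 0.14) and Starved (-2.41 ± 0.08), and the last pair overlapped. vbh-1 had the same order, at -1.41 ± 0.15, -1.72 ± 0.06, -2.03 ± 0.19, -2.53 ± 0.28 and -3.04 ± 0.14, but there E02H1.1 overlapped Fed. For hpo-11 and mdt-15 the order was another: the Fed means of -1.18 ± 0.10 and -0.07 ± 0.04 were at or above the Empty_vector means of -1.19 ± 0.06 and -0.20 ± 0.03, and the knockdowns were the lowest groups. Empty_vector less Fed came to 1.47 for C32F10.4, 1.12 for vbh-1, 1.099 for ztf-7, 0.94 for W03G11.4, 0.71 for skr-21, 0.38 for mnk-1, 0.33 for lin-66 and 0.32 for T01G1.4. It came to -0.01 for hpo-11 and -0.13 for mdt-15. Over all 10714 genes the median was -0.02, and 0.691% of genes were at or above the value of C32F10.4, 1.36% at or above vbh-1, 1.4% at or above ztf-7 and 1.99% at or above W03G11.4. The share was 3.69% for skr-21, 12.2% for mnk-1, 14.9% for lin-66, 15.7% for T01G1.4, 48.96% for hpo-11 and 65.3% for mdt-15. The genes were chosen by TE below these same Empty_vector libraries, which favours high Empty_vector values. Nothing is therefore read from these shares. Empty_vector and Fed belong to separate experiments with different Ribo-seq depths, so RNAi feeding and experiment cannot be told apart.

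Over the 24 pairs of same-named columns, the genes did not all move together. Pearson's r between the TE of a gene and the mean standardized TE of the other 9 was 0.87 for mnk-1, 0.83 for W03G11.4, 0.81 for lin-66, 0.78 for ztf-7 and 0.73 for C32F10.4, and 0.66, 0.66 and 0.56 for vbh-1, T01G1.4 and skr-21. It was 0.07 for hpo-11 and -0.06 for mdt-15. The 5 genes outside the list with the highest r to the mean of all 10, of 8059 with a mean of at least 10 footprint CPM, were tax-6, a calcineurin subunit (r = 0.93), sur-6, a phosphatase regulatory subunit (0.91), lin-14, a heterochronic gene (0.90), unc-75, a neuronal RNA-binding protein (0.90), and mbk-2, a protein kinase (0.90). These points share libraries, depth, experiment and the splits within Fed and Starved given above, and the values are a description. TE of tax-6 was at -0.68 in E02H1.1, -0.43 in C27F2.4 and 0.12 in Starved, and that of unc-75 at -0.69, -0.43 and 0.02. Of the 5, unc-75 and sur-6 were among the 51 genes lower in both knockdowns. The 10 genes were chosen for low TE in these knockdowns, so genes that resemble their mean tend to be low there too. Nothing is read from that.

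Lists of relatives of the 10 genes follow, with the 10 genes left out. Over all genes tested for TE, 5.24% passed as lower and 5.59% as higher in E02H1.1. These shares were 0.513% and 0.364% in C27F2.4, and 3.75% and 2.54% in Starved. At the C27F2.4 shares most lists of this size would have no gene that passed. Counts near the shares are not read as a result. Of 15 heterochronic genes tested for TE, 6 fell and none rose in E02H1.1, and 3 fell in C27F2.4, with medians of -0.25 and -0.20 beside 0.03 and 0.02 over all genes. lin-42 (-0.62 in E02H1.1 and -0.43 in C27F2.4), hbl-1 (-0.45 and -0.31) and ain-2 (-0.33 and -0.23) fell in both. In Starved 1 rose and 3 fell: nhl-2 was at 0.18 ± 0.06 (edgeR adjusted p = 0.0472), and alg-1, an Argonaute of the microRNA pathway, was at -0.23 ± 0.06 (adjusted p = 0.0112), with dcr-1, which encodes Dicer, at -0.23 ± 0.07 (adjusted p = 0.0454). The heterochronic genes had a median change of 0.14 in mRNA and -0.17 in footprints in E02H1.1, beside -0.006 and 0.005 over all genes. In C27F2.4 these medians were 0.09 and -0.10, beside -0.004 and -0.003. Their lower TE thus held both higher mRNA and lower footprints.

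SKP1-related and cullin genes that passed in E02H1.1 mostly lay the other way from skr-21. Of 23 tested for TE, 9 rose and 1 fell there (median 0.23 beside 0.03 over all genes). Their median change there was -0.29 in mRNA and -0.04 in footprints, beside -0.006 and 0.005 over all genes. The higher TE thus went with lower mRNA, while skr-21 was at -0.01 in mRNA and -0.64 in footprints. In TE none passed in C27F2.4, and in Starved cul-5 alone passed (-0.23 ± 0.06, edgeR adjusted p = 0.0153). Among 26 Mediator subunits, 1 rose and 2 fell in TE in E02H1.1 and none passed in C27F2.4, and 4 fell in Starved, including rgr-1 (-0.31 ± 0.06, adjusted p = 0.00114) and mdt-27 (-0.29 ± 0.07, adjusted p = 0.0101). Of 16 partners of MDT-15 and fatty acid genes, 3 fell in E02H1.1 and none passed in C27F2.4 or Starved.

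Of 41 DEAD-box helicase names listed, only 18 besides vbh-1 were matched to a gene and tested. Of these 18, 1 rose in TE in E02H1.1 and none passed in C27F2.4. In Starved 3 fell and none rose, including the germ granule helicase glh-4 (-0.67 ± 0.14, edgeR adjusted p = 0.00125) and laf-1, a relative of Belle (-0.46 ± 0.05, adjusted p = 1.44e-07), so that vbh-1 was not alone among helicases in having lower TE there. Of 19 MAP kinase and eIF4E genes, 1 rose and 1 fell in E02H1.1 and none passed in C27F2.4. In Starved mek-2 rose (0.21 ± 0.06, adjusted p = 0.0307) and jkk-1 fell (-0.69 ± 0.22, adjusted p = 0.0477). Of 22 ztf genes, 1 rose and 2 fell in E02H1.1 and none passed in C27F2.4, and in Starved ztf-6 rose (0.27 ± 0.07, adjusted p = 0.0141) while ztf-28 (-0.71 ± 0.22, adjusted p = 0.0472) and ztf-17 (-0.27 ± 0.09, adjusted p = 0.0459) fell.

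In the RefSeq annotation of WBcel235, 4 of the 10 genes overlap another protein-coding gene: C32F10.4 overlaps lin-35, T01G1.4 overlaps klp-12, hpo-11 overlaps K10D3.4, and mdt-15 overlaps R12B2.8 and R12B2.13. Whether counting used the strand is not stated, so reads of such neighbours cannot be told apart and the values of these 4 genes are uncertain to that extent. lin-35 did not follow C32F10.4 in E02H1.1, with mRNA at -0.19 ± 0.05 and TE at 0.01 ± 0.08. klp-12 was at -0.16 ± 0.07 in TE in E02H1.1 and -0.15 ± 0.07 in C27F2.4. In E02H1.1 K10D3.4 was at 0.09 ± 0.05 in mRNA and -0.01 ± 0.07 in TE, and R12B2.8 at 0.40 ± 0.18 and 0.17 ± 0.38; R12B2.13 was not analysed here.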

How the data were processed

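The authors' deposited tables gave whole-number counts per gene for mRNA-seq and Ribo-seq with no scaling, and deposited log2 TE values with a pseudocount of 1. Per the submitters' processing notes, cutadapt was used; an aligner, a counter and a build were not given in the sources used here. Gene symbols were matched by identifier. The tests across whole tables used edgeR 4.0.16 under R 4.3.3: robust quasi-likelihood fits after filterByExpr and TMM, two-sided, with Benjamini-Hochberg adjustment and a threshold of 0.05. Fed and Starved were fitted together, and the 3 RNAi groups together. TE changes were the interaction of assay and group, with TMM within each assay; no spike-in is named, so values are relative to other genes. Per-library levels were TMM-scaled CPM over 24 libraries per assay, and log2 TE used a prior count of 0.5. RNAi columns carry letters where labels carry numbers. The 10 genes, the gene lists and the tests were chosen with earlier results of these data known. Named genes were the 10, both targets, the 5 of highest likeness and up to 2 per list and direction in Starved TE. The fits were tested on simulated independent libraries, with planted footprint changes larger than the TE changes given here for the 10 genes. Smaller changes were not simulated. Alternatives used limma 3.58.1 and DESeq2 1.42.0.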

Additional observations from a re-analysis of the deposited data

Results flagged for a closer look

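In 150 groups of 4 or 6 libraries (10 genes, 3 measures, 5 groups), 9 had a highest or lowest library far from the others by Dixon's test, where chance gives about 1 in 20 groups. In TE, C27F2.4 A stood at -1.38 for ztf-7 (others -1.59 to -1.57), and Empty_vector C at -1.13 for mnk-1 (others -1.35 to -1.32). In footprints, C27F2.4 C stood at 90.7 CPM for skr-21 (others 99.3 to 101), and Starved 3 at 127 CPM for hpo-11 (others 141 to 148). In mRNA, C27F2.4 C stood at 29.7 CPM for C32F10.4 (others 35.0 to 35.8), Empty_vector C at 85.5 for T01G1.4 (others 78.8 to 79.5) and at 324.3 for W03G11.4 (others 365 to 369), C27F2.4 A at 339 for hpo-11 (others 356.5 to 357.4), and E02H1.1 A at 685 for vbh-1 (others 708 to 711). Empty_vector C accounts for 3 of the 9 and C27F2.4 C and A for 4.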

How the results depend on the processing

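The median TE change of the 10 genes ranged from -0.67 to -0.55 in E02H1.1 and from -0.35 to -0.29 in C27F2.4 over 19 alternatives each. Of 380 values of single genes there, 379 moved by less than 1 SD and mdt-15 in E02H1.1 moved to -0.46 with limma on the deposited TE values. In Starved, vbh-1 passed in TE under all 20 alternatives (adjusted p from 2.98e-05 to 0.0365), and mnk-1 and C32F10.4 passed in mRNA under all 18. The count of genes passing in TE was 2 instead of 1 with library totals, with a culture block and with a replicate block, since skr-21 joined vbh-1 (adjusted p = 0.04098, 0.02630 and 0.004075). Leaving out 1 library gave 1 to 2 genes in TE, 3 to 4 in mRNA and 1 to 3 in footprints, and leaving out Starved 1 and Starved 5 gave 1 in footprints. Under the replicate block vbh-1 footprints did not pass (adjusted p = 0.0740). Same-numbered libraries of Fed and Starved did not vary together (r from -0.17 to 0.01), so the numbers are not taken as pairs. Same-lettered Ribo-seq libraries of the knockdown experiment were over r = 0.1 in 5 of 12 pairs, with r up to 0.31. Same-named mRNA-seq and Ribo-seq columns were over 0.1 in 5 of 12 pairs in each experiment. There r reached 0.49 in the knockdown experiment and 0.25 in Fed and Starved. The main fits treat all libraries as independent. Values near 0 changed sign: mnk-1 TE was 0.012 with library totals, and without Starved 1 and Starved 5 mdt-15 TE was -0.00699, skr-21 mRNA 0.013 and C32F10.4 footprints -0.13. On leaving out 1 library, lin-66 mRNA ran from -0.023 to 0.023, mdt-15 TE from -0.014 to 0.038, T01G1.4 footprints from -0.011 to 0.082 and T01G1.4 TE from -0.10 to 0.0036. The cause was not tested. Footprint depth, down to 42 counts for C32F10.4, limits the low genes.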
